A study of Mus musculus with 18 samples.

Results

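The 7 genes described here write, copy and remove DNA methylation: the methyltransferases Dnmt1, Dnmt3a and Dnmt3b, the Dnmt1 cofactor Uhrf1, and the dioxygenases Tet1, Tet2 and Tet3. They were chosen by gene name from a deposited table of 29437 genes, and all 7 were among the 16325 genes with enough reads to be tested. The table holds poly(A) RNA read counts from sorted bone marrow cells of mice aged 10 weeks, 3 wild type (WT) and 3 null for Helios (KO). Ikzf2 encodes Helios, one of the Ikaros zinc finger proteins that bind DNA. Hematopoietic stem cells with long-term activity (LT-HSC) and the multipotent progenitors MPP3 and MPP4 were sorted from each genotype by surface Kit, Sca1, CD48, CD150 and Flt3, which gave 6 groups of 3 libraries: LT-HSC WT, LT-HSC KO, MPP3 WT, MPP3 KO, MPP4 WT and MPP4 KO. The labels name no other allele or agent, and no source used here gives the exons removed in the null allele.

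DNA methyltransferases place methyl groups on cytosines of CpG dinucleotides. Dnmt3a and Dnmt3b methylate new sites, and Dnmt1 copies the pattern to the new strand behind the replication fork, where Uhrf1 binds CpG methylated on the old strand only and recruits Dnmt1. The TET enzymes oxidise methylcytosine to hydroxymethylcytosine and further, using iron and alpha-ketoglutarate, and the oxidised bases are diluted by replication or replaced by base excision repair. In blood, DNMT3A and TET2 are genes whose mutations are common in human clonal hematopoiesis, and in mice the loss of Dnmt3a or Tet2 from stem cells increases their self-renewal. Dnmt1 and Uhrf1 are required for mouse stem cells to be maintained.

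The windows just upstream of the RefSeq start sites are shown first for Uhrf1 and for Dnmt1, the pair that act together at the fork. Each window holds the 250 bases before a start in GRCm38.p6 (the mm10 build), written 5′ to 3′ on the gene's strand. Capitals mark matches on either strand to TTTNNCGC, a loose form of the E2F motif in which N is any base. The first Uhrf1 window is chr17:56303087-56303336 on the plus strand, the second is chr17:56304063-56304312 on the plus strand, and the Dnmt1 window is that of the third listed start, chr9:20952624-20952873 on the minus strand. The second Uhrf1 window and this Dnmt1 window lie within the gene, downstream of the earlier listed starts, and may hold transcribed bases.
Uhrf1, start 1: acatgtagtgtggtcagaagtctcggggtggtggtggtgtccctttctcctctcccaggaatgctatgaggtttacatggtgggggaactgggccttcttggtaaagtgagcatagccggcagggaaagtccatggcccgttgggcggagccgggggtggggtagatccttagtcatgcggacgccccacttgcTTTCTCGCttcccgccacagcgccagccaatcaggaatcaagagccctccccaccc
Uhrf1, start 2: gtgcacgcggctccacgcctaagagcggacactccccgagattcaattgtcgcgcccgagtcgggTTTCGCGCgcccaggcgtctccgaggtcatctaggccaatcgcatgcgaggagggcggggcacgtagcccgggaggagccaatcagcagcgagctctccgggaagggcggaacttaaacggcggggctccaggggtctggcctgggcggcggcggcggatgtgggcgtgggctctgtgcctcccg
Dnmt1, start 3: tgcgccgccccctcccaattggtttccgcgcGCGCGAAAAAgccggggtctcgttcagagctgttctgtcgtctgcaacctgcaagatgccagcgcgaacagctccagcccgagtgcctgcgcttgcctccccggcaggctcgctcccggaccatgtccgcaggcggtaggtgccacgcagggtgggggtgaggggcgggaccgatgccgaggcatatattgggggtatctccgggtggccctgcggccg
Of 32851 mouse windows of this length, 4.28% hold a match. Both Uhrf1 windows held 1, and the third Dnmt1 window held 2 that overlap each other. The windows of the other two Dnmt1 starts, of the 3 Dnmt3a starts and of the single starts of Dnmt3b, Tet1, Tet2 and Tet3 held none. E2F factors drive S phase genes. A match in a window is a description of its letters and not evidence of binding.

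The Ikaros family core TGGGAA, searched on both strands, was found in 21.6% of all windows. Dnmt3a has a match in 1 of its 3 windows, chr12:3891494-3891743 on the plus strand, shown here with the match in capitals because Dnmt3a is the member with the narrowest spread and with all LT-HSC KO libraries below all LT-HSC WT libraries. The Dnmt3b window, chr2:153649199-153649448 on the plus strand, is shown beside it because Dnmt3b is the other de novo methyltransferase, and it held no match to either motif.
Dnmt3a, start 3: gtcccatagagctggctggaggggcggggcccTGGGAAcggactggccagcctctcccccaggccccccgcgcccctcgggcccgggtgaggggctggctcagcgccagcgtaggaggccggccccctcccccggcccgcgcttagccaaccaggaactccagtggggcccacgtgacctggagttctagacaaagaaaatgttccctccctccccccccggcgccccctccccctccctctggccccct
Dnmt3b, start 1: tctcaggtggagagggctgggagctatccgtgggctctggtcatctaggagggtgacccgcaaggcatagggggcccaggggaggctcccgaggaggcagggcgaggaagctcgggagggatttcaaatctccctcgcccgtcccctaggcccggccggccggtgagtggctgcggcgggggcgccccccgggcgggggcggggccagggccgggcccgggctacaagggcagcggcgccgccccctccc
Single matches to this core also lay in the first Dnmt1 window and in the Tet1 and Tet3 windows, and none lay in the Uhrf1 or Tet2 windows. Tet1 too had all LT-HSC KO libraries below all LT-HSC WT libraries, whereas Dnmt1 and Tet3, which also hold a match, overlapped between KO and WT there. The Dnmt3a window was chosen for display by the values of the gene, so its match adds nothing to them. Neither Dnmt3a nor Tet1 passed between KO and WT, and a match is not evidence of Helios binding. The ratio of observed to expected CpG, the dinucleotide these enzymes act on, had a median of 0.374 over all windows. It was 1.19 in the Tet2 window, above 99.3% of all windows. It was 0.938 and 1.09 in the first and second Dnmt3a windows, 0.459 in the third, and 0.608 in Dnmt3b. The first Dnmt1 window stood at 0.126, below the median, and the third at 0.89.

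Total counts ran from 21053050 to 45410959 per library, with 17362 to 20272 genes detected. In every group library 1 had the fewest genes detected, 17362 to 18896, beside 19185 to 20272 in libraries 2 and 3. The main fit has no term for the library number, and fits with the number as a block were alternatives. Ikzf2 was at 27.1 to 65.6 CPM (reads per 1000000 counted reads) in the 9 WT libraries and at 3.55 to 24 CPM in the 9 KO libraries, so no KO library reached a WT library of its population, although reads remained. Of the 5 gate genes, Slamf1 and Flt3 are given here, and both followed the sort. Slamf1, which encodes CD150, was at 53.7 to 75.1 CPM in LT-HSC and at most 8.61 CPM in the progenitors. Flt3 was at 2705 to 3640 CPM in MPP4 and at most 876 CPM elsewhere, with MPP3 at 553 to 876 CPM. In 2 populations, marker lists of other cells moved with single libraries. Summed CPM of 10 mature neutrophil markers was 3.86, 74.7 and 235 in the LT-HSC WT libraries and 2.83 to 8.5 in LT-HSC KO. None of the 10 was at 0 reads in either group. Summed CPM of 10 B and plasma cell markers was 3679, 4033 and 469 in MPP3 WT and 3213, 310 and 343 in MPP3 KO. Ighm, Igkc and Jchain made up most of the high sums, and the B cell marker Ms4a1 was at most 0.748 CPM in MPP3. Marker sums also differed between the populations. In WT, 8 T and NK cell markers summed to 40.3 to 59.2 CPM in LT-HSC, 279 to 363 in MPP3 and 176 to 198 in MPP4. Of these 8, 5 were at 0 reads in LT-HSC WT, 0 in MPP3 WT and 4 in MPP4 WT. Only 3 of the 8 had enough reads to be tested. The B and plasma cell sum was 200 to 280 CPM in LT-HSC WT and 1315 to 1696 in MPP4 WT, and 8 macrophage and dendritic cell markers summed to 19.1 to 47.6 and 145 to 216 CPM. The part of these transcripts in the values below was not tested, other than by fits that leave single libraries out. Since the samples are bulk cells, fewer cells that use a gene and less of its RNA per cell cannot be told apart in any value.

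CPM values below were scaled by edgeR's TMM factors and are given for libraries 1, 2 and 3 of a group in that order. Differences are log2 fold changes with standard errors from edgeR's quasi-likelihood test, fitted to all 18 libraries with Benjamini-Hochberg adjustment over all genes tested, and called at an adjusted p under 0.05. Nothing in the labels says that more than one culture or sort was made per mouse. The p-values rest on an estimate of the spread between libraries within groups that is shared over all 6 groups. The standard errors therefore do not follow the spread of the compared groups alone. The main fit does not pair libraries by mouse, although the library number was taken as the mouse within a genotype. Fits with the mouse as a block were alternatives for the comparisons of populations.

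Uhrf1 passed in all 4 comparisons of a progenitor with the stem cells. In WT it was higher in both progenitor populations than in LT-HSC, by 1.94-fold in MPP3 and by 2.02-fold in MPP4. In KO it was higher by 1.65-fold in MPP3 and by 1.71-fold in MPP4. Uhrf1 stood at 125, 111 and 158 CPM in LT-HSC WT. It stood at 211, 143 and 183 CPM in LT-HSC KO. In MPP3 WT it stood at 249, 228 and 290 CPM. All MPP3 WT libraries thus lay above all 6 LT-HSC libraries. Uhrf1 was at 321, 250 and 315 CPM in MPP3 KO, at 249, 224 and 325 CPM in MPP4 WT, and at 324, 226 and 369 CPM in MPP4 KO. No progenitor library fell to the level of any stem cell library, and the 4 progenitor groups overlapped one another.

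The Uhrf1 difference between MPP3 and LT-HSC in WT was 0.96 ± 0.20 (log2, SE, 3 against 3 libraries, edgeR adjusted p = 0.00346), and between MPP4 and LT-HSC in WT 1.01 ± 0.20 (edgeR adjusted p = 0.00116). In KO they were 0.72 ± 0.20 (edgeR adjusted p = 0.0221) and 0.77 ± 0.20 (edgeR adjusted p = 0.00965). Both WT differences passed in every alternative fit, those without LT-HSC WT 2 and 3 included, where they were 1.01 (edgeR adjusted p = 0.0447) and 1.07 (edgeR adjusted p = 0.0225). In those last fits LT-HSC WT is 1 library, assumed to vary like the other groups. The KO differences passed with the mouse as a block (0.73 and 0.76, edgeR adjusted p = 7.87e-05 and 2.32e-05), and also in DESeq2 and voom. However, they rested on more libraries. With libraries 2 and 3 only, they were 0.79 (edgeR adjusted p = 0.098) and 0.87 (edgeR adjusted p = 0.0536). The MPP3 call in KO was lost without LT-HSC KO 2 (0.58, edgeR adjusted p = 0.119), LT-HSC KO 3 (0.74, edgeR adjusted p = 0.0538), MPP3 KO 1 (0.66, edgeR adjusted p = 0.0844) or MPP3 KO 3 (0.67, edgeR adjusted p = 0.0778). The MPP4 call in KO was lost without LT-HSC KO 2 (0.64, edgeR adjusted p = 0.0602) or MPP4 KO 3 (0.62, edgeR adjusted p = 0.0596). All of these values stayed above 0.

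**Figure D1:**
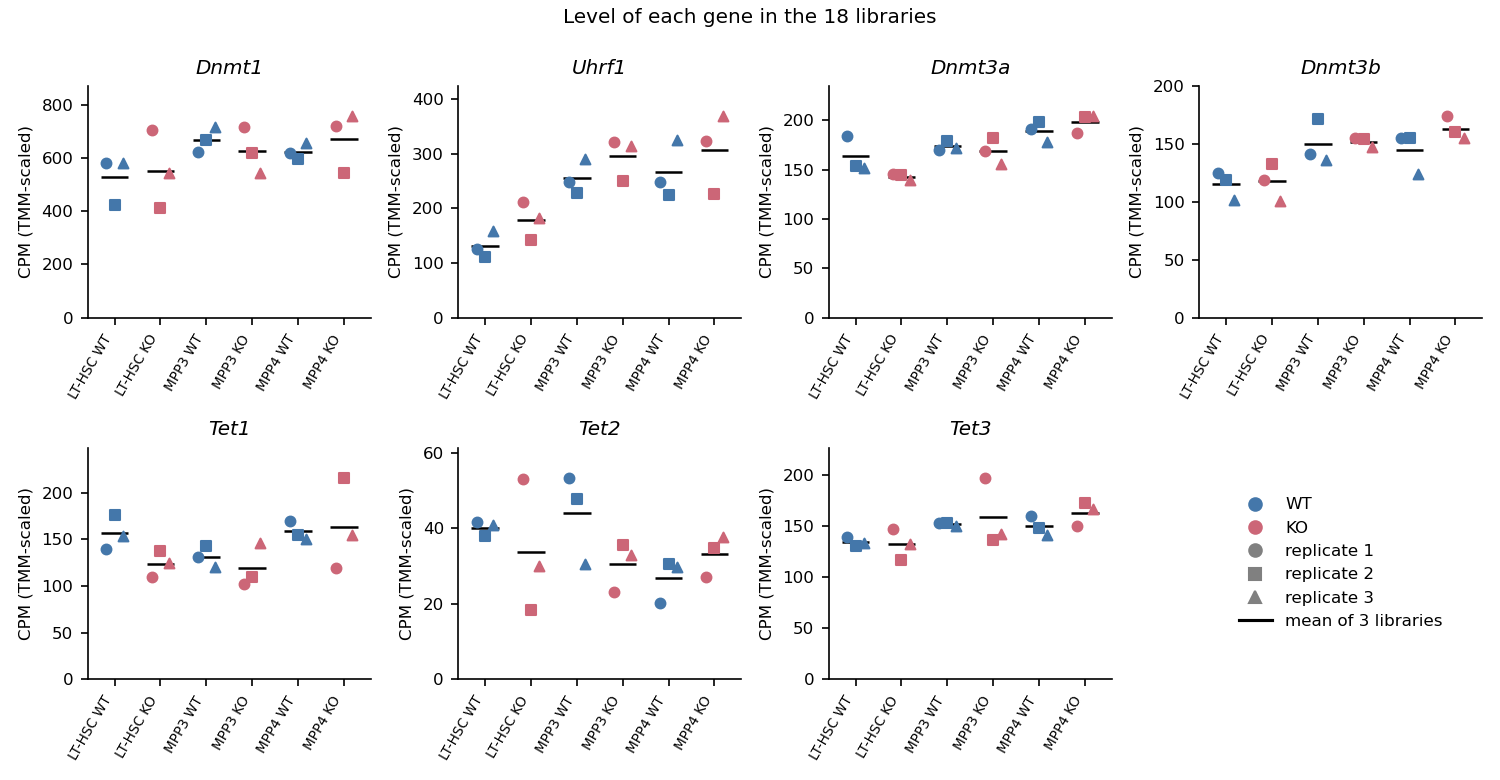
TMM-scaled CPM of the 7 genes in each of the 18 libraries, by group (x axis), with circles, squares and triangles for replicates 1, 2 and 3, blue for WT, red for KO and a line at the mean of 3 libraries. Uhrf1 runs from 111 to 158 CPM in LT-HSC WT and from 224 to 369 CPM in the 4 progenitor groups, while Dnmt3a stays between 139 and 204 CPM throughout.

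Dnmt1, the maintenance methyltransferase, had the highest read count of the 7 in all libraries and did not pass in any comparison. It stood at 582, 424 and 582 CPM in LT-HSC WT and at 705, 411 and 542 CPM in LT-HSC KO. In MPP3 it stood at 621, 666 and 715 CPM in WT and at 715, 618 and 544 CPM in KO. In MPP4 it stood at 617, 596 and 656 CPM in WT and at 719, 543 and 757 CPM in KO. In WT the MPP3 and MPP4 libraries lay above the 3 LT-HSC libraries, by a log2 difference of 0.33 ± 0.17 (edgeR adjusted p = 0.207) and 0.23 ± 0.17 (edgeR adjusted p = 0.352), whereas the KO groups overlapped. The 95% interval of the MPP3 difference in WT was -0.04 to 0.7 for Dnmt1 and 0.54 to 1.38 for Uhrf1, and these intervals overlap.

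The ratio of Uhrf1 to Dnmt1 reads within a library does not depend on the scaling between libraries. It was 0.215, 0.263 and 0.272 in LT-HSC WT, and 0.3, 0.347 and 0.339 in LT-HSC KO. The 3 KO ratios lay above the 3 WT ratios in LT-HSC. Any full separation of 3 against 3 libraries gives p = 0.1 in an exact two-sided permutation test, the smallest possible. That value is fixed once the groups separate, so no conclusion is drawn from it. No share of other gene pairs that separate stands beside it. For Dnmt3a to Dnmt3b, Tet1 to Tet3 and Tet2 to Tet3, KO and WT overlapped in every population. The ratio of Uhrf1 to Dnmt1 averaged 0.383 ± 0.0356 (SD, n = 3) in MPP3 WT and 0.478 ± 0.0914 in MPP3 KO, where the ranges of 0.342 to 0.406 and 0.404 to 0.58 overlapped. It averaged 0.425 ± 0.063 in MPP4 WT and 0.451 ± 0.0355 in MPP4 KO. Every progenitor library was above every LT-HSC WT library, and the lowest, MPP3 WT 2 at 0.342, lay below the highest LT-HSC KO library at 0.347.

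**Figure D2:**
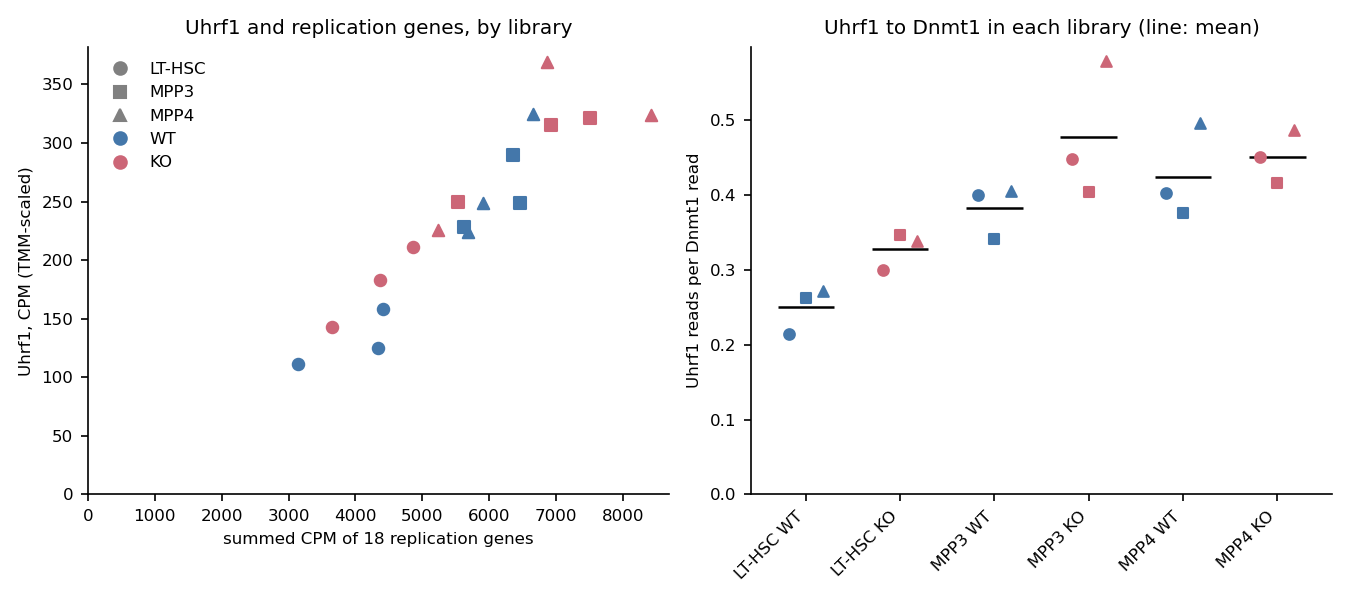
Left, TMM-scaled CPM of Uhrf1 (y axis) against the summed CPM of 18 replication genes (x axis), 1 point per library, with the shape for the population and the colour for the genotype. Right, Uhrf1 reads per Dnmt1 read in each library by group, with a line at the mean; the LT-HSC WT libraries sit at 0.215 to 0.272 and the LT-HSC KO libraries at 0.3 to 0.347.

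Replication genes moved with Uhrf1. Of 18 genes of DNA replication (the MCM helicase, GINS, clamp and polymerase subunits and the like), 15 passed as higher in MPP3 than in LT-HSC in WT and 12 in MPP4, beside 9.68% and 14.1% of all genes tested, with medians of 0.85 and 0.70 over the list and 0 and -0.01 over all genes. In KO, 10 and 11 passed as higher, beside 6.85% and 9.57% of all genes. Of 12 genes of mitosis, 2 and 4 passed as higher in WT MPP3 and MPP4 (medians of 0.65 and 0.63) and 2 in each in KO (0.53 and 0.79). Summed CPM of the 18 replication genes was 4334, 3138 and 4413 in LT-HSC WT, 4859, 3643 and 4371 in LT-HSC KO, and 5230 to 8423 in the progenitor libraries. Across the 18 libraries log2 Uhrf1 followed the log2 sum of this list with a Pearson correlation of 0.942 and log2 Dnmt1 with one of 0.786, a description over libraries that share populations and mice. The genes with the most similar pattern to Uhrf1, among genes with a mean of at least 5 CPM, were Cks1b (0.966), a subunit of cyclin-dependent kinase complexes, Cdc45 (0.961), of the replicative helicase, and Cdca5 (0.96), which stabilises cohesion between sister chromatids. For Dnmt1 they were Prc1 (0.887), which bundles spindle microtubules, Psmd12 (0.872), of the proteasome lid, and Brcc3 (0.865), a deubiquitinase. Set against the replication sum, Uhrf1 CPM was 2.89% to 3.59% of it in LT-HSC WT and 3.91% to 4.35% in LT-HSC KO. In MPP3 this was 3.85% to 4.56% in WT and 4.28% to 4.55% in KO. In MPP4 it was 3.94% to 4.89% in WT and 3.84% to 5.37% in KO, so the genotypes overlapped in both progenitors. No share of other genes that separate stands beside these values. The part of cell cycle phase in the Uhrf1 differences was not tested.

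Dnmt3a, a de novo methyltransferase, had the smallest range of the 7, 1.47-fold between its lowest and highest library. It stood at 184, 154 and 152 CPM in LT-HSC WT and at 145, 144 and 139 CPM in LT-HSC KO, so each KO library lay below each WT library. It stood at 170, 179 and 172 CPM in MPP3 WT and at 169, 182 and 156 CPM in MPP3 KO. In MPP4 it stood at 191, 198 and 178 CPM in WT and at 187, 203 and 204 CPM in KO. Dnmt3a was higher in MPP4 than in LT-HSC in KO, by 0.47 ± 0.09 on the log2 scale (1.39-fold, edgeR adjusted p = 0.00101), and this passed without any one library (edgeR adjusted p = 0.00234 to 0.00671). In WT the same difference was 0.21 ± 0.09 (edgeR adjusted p = 0.0958), and it passed without LT-HSC WT 1 (0.32, edgeR adjusted p = 0.0188). The difference between these differences, which is also the difference of the KO effects in MPP4 and LT-HSC, was 0.26 ± 0.13 (edgeR adjusted p = 0.754). The change was therefore not shown to differ between genotypes.

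Dnmt3b, the other de novo methyltransferase, stood at 125, 119 and 102 CPM in LT-HSC WT and at 119, 133 and 101 CPM in LT-HSC KO. It stood at 141, 172 and 136 CPM in MPP3 WT and at 155, 154 and 147 CPM in MPP3 KO. In MPP4 it stood at 155, 155 and 124 CPM in WT and at 174, 160 and 155 CPM in KO. Of the differences from LT-HSC, 2 passed as higher, MPP3 in WT (0.38 ± 0.12 log2, edgeR adjusted p = 0.0461) and MPP4 in KO (0.47 ± 0.12 log2, edgeR adjusted p = 0.0119). The other two differences were of like size but did not pass: 0.33 ± 0.12 for MPP4 in WT (edgeR adjusted p = 0.0585) and 0.37 ± 0.12 for MPP3 in KO (edgeR adjusted p = 0.0593). The first of these passed without LT-HSC WT 1 (0.41, edgeR adjusted p = 0.0449) or MPP4 WT 3 (0.43, edgeR adjusted p = 0.0281), and the second without LT-HSC KO 2 (0.46, edgeR adjusted p = 0.0473). With the mouse as a block both passed, at 0.33 (edgeR adjusted p = 0.0141) and 0.37 (edgeR adjusted p = 0.0112). The WT call in MPP3 was lost without any one of 5 of the 6 libraries, all but LT-HSC WT 1, with adjusted p-values of 0.0559 to 0.199 in edgeR. The KO call in MPP4 was lost without LT-HSC KO 3 (0.37, edgeR adjusted p = 0.0687) or without MPP4 KO 1 (0.41, edgeR adjusted p = 0.0615), and with libraries 2 and 3 only (0.43, edgeR adjusted p = 0.121). Without LT-HSC WT 2 and 3, the libraries with neutrophil transcripts, the WT difference in MPP3 was 0.24 (edgeR adjusted p = 0.417).

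Dnmt3a reads outnumbered Dnmt3b reads in all 18 libraries, by 1.04 to 1.49 times. The ratio was 1.42 ± 0.11 (SD, n = 3) in LT-HSC WT and between 1.11 and 1.31 on average in the other 5 groups. Counts are not levels per length, and these ratios describe reads. The genes whose pattern was most like Dnmt3a were Snx30 (Pearson correlation of log2 CPM over 18 libraries, 0.94), a sorting nexin, Fbxw4 (0.911), an F-box protein, and Arpp21 (0.91), a cAMP-regulated phosphoprotein. For Dnmt3b they were Casp1 (0.873), the inflammatory caspase, Slco3a1 (0.87), an organic anion transporter, and Zbed3 (0.864), a zinc finger protein.

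The TET genes did not pass in any comparison of populations with all 18 libraries in edgeR. Tet1 stood at 140, 176 and 153 CPM in LT-HSC WT and at 109, 137 and 125 CPM in LT-HSC KO, where all KO libraries lay below all WT libraries. It stood at 131, 143 and 120 CPM in MPP3 WT and at 102, 109 and 146 CPM in MPP3 KO. In MPP4 it stood at 170, 155 and 150 CPM in WT and at 119, 216 and 155 CPM in KO, the widest spread of this gene (30.2% of the mean). In KO, Tet1 differed by 0.46 ± 0.18 between MPP4 and MPP3 (edgeR adjusted p = 0.19) and by 0.40 ± 0.18 between MPP4 and LT-HSC (edgeR adjusted p = 0.138). Both passed without MPP4 KO 1, at 0.64 (edgeR adjusted p = 0.0392) and 0.58 (edgeR adjusted p = 0.0261). Without MPP4 KO 2, the library at 216 CPM, they were 0.20 (edgeR adjusted p = 0.657) and 0.15 (edgeR adjusted p = 0.618). Within libraries there were 0.516 to 1.35 Tet1 reads per Tet3 read, and the 3 MPP4 WT libraries were alike at 1.05 to 1.07.

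Tet2, the TET gene most often mutated in blood, had the fewest reads of the 7 (512 to 1910 per library) and the highest median spread within groups (21.4% of the mean). It stood at 41.6, 37.9 and 40.9 CPM in LT-HSC WT, a spread of 4.93% of the mean, but at 53.1, 18.4 and 29.9 CPM in LT-HSC KO, a spread of 52.4%. It stood at 53.4, 47.8 and 30.6 CPM in MPP3 WT and at 23.2, 35.5 and 33 CPM in MPP3 KO. In MPP4 it stood at 20.2, 30.6 and 29.7 CPM in WT and at 27.1, 34.8 and 37.7 CPM in KO. In WT the 3 MPP4 libraries lay below the 3 LT-HSC libraries, with a difference of -0.58 ± 0.31 (edgeR adjusted p = 0.174), and below or level with those of MPP3 (-0.71 ± 0.31, edgeR adjusted p = 0.281). In KO the groups overlapped, and the difference between MPP4 and LT-HSC was -0.02 with a 95% interval of -0.67 to 0.62.

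Tet3 stood at 139, 130 and 133 CPM in LT-HSC WT and at 147, 117 and 132 CPM in LT-HSC KO. It stood at 153, 153 and 150 CPM in MPP3 WT and at 197, 136 and 142 CPM in MPP3 KO. In MPP4 it stood at 160, 148 and 141 CPM in WT and at 150, 172 and 166 CPM in KO. The WT progenitor libraries all lay above the LT-HSC WT libraries, with log2 differences of 0.19 ± 0.12 for MPP3 (edgeR adjusted p = 0.331) and 0.16 ± 0.12 for MPP4 (edgeR adjusted p = 0.364). In KO the difference between MPP4 and LT-HSC was 0.30 ± 0.12 (edgeR adjusted p = 0.105), and with libraries 2 and 3 only it passed at 0.44 (edgeR adjusted p = 0.012).

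The 3 TET genes differed in what they resembled. Tet3 was most like Dlgap5 (Pearson correlation over 18 libraries, 0.837) and Hmmr (0.793), which act on the mitotic spindle, and Mthfd1l (0.794), a mitochondrial folate enzyme. Tet1 was most like Celf2 (0.833), an RNA-binding protein, Zfp831 (0.822), a zinc finger protein, and Malt1 (0.798), a paracaspase of antigen receptor signalling. Tet2 was most like Sbno1 (0.772), Pank4 (0.739) and Tpcn2 (0.722), the last a lysosomal ion channel. Correlation with the replication sum was 0.661 for Tet3, -0.294 for Tet1 and -0.0936 for Tet2. Among the 7 themselves the highest values were 0.749 between Dnmt1 and Uhrf1 and 0.721 between Dnmt3a and Dnmt3b, and the lowest was -0.429 between Dnmt1 and Tet1. All these values are descriptions over libraries that share mice, populations and scaling.

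Counted over the 7, the shares passing were as follows. Between MPP3 and LT-HSC in WT, 2 of 7 passed, both higher, beside 17.3% of all genes tested. Between MPP4 and LT-HSC in WT, 1 of 7 passed beside 27.2%. In KO, 1 of 7 passed in MPP3 against LT-HSC beside 13.7%, and 3 of 7 in MPP4 against LT-HSC beside 20.1%. Between MPP4 and MPP3, 0 of 7 passed in edgeR in WT (4.81% of all genes) and in KO (5.44%), and 1 and 2 of 7 had an unadjusted p under 0.05, beside 14.3% and 16.2% of all genes. DESeq2 also called 0 in both. No test was made of these shares. Groups did not overlap for 4 of 7 in MPP3 against LT-HSC in WT (35.5% of all genes), 4 in MPP4 against LT-HSC in WT (40.9%), 3 and 4 in the same comparisons in KO (32.9% and 35.2%), and 2 in MPP4 against MPP3 in each genotype (20.8% and 21.3%).

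**Figure D3:**
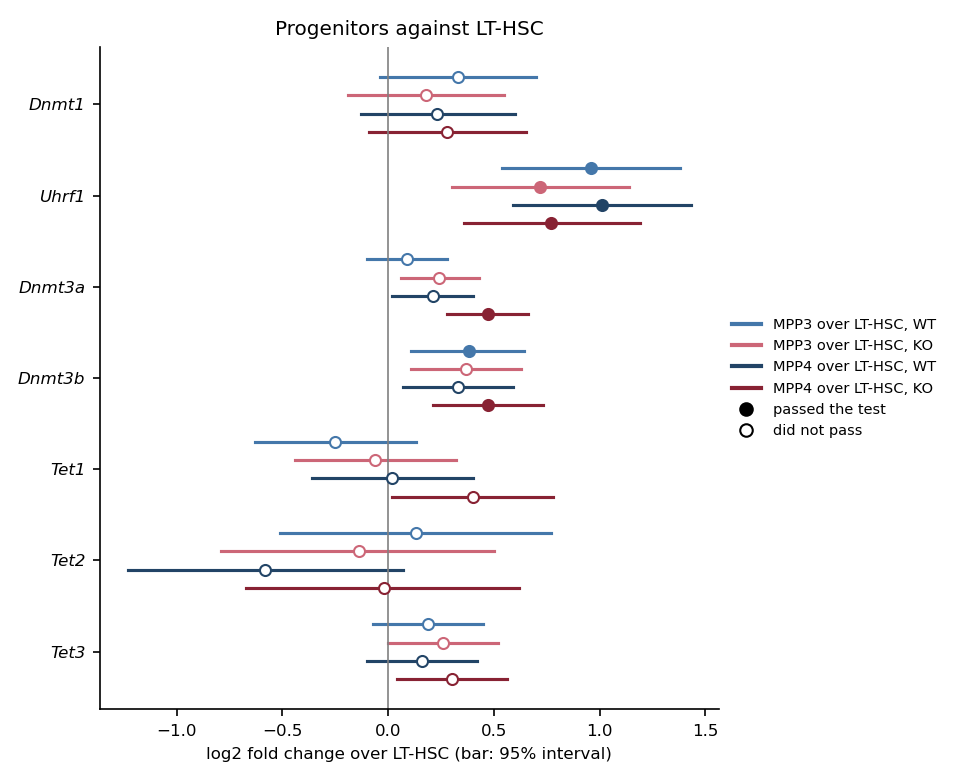
Log2 fold change of each gene in MPP3 and MPP4 over LT-HSC, in WT and KO (colours), from edgeR with 95% intervals as bars; filled points passed at an adjusted p under 0.05. Uhrf1 is filled in all 4 comparisons (0.72 to 1.01), Dnmt3b in 2 and Dnmt3a in 1, while Dnmt1 and the TET genes are open.

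The loss of Helios was then compared within each population. None of the 7 passed between KO and WT. In the same test Ikzf2, the deleted gene, was -2.07 ± 0.33 in LT-HSC (edgeR adjusted p = 0.0259). It did not pass in MPP3 (-1.24 ± 0.32, edgeR adjusted p = 0.66) or MPP4 (-1.98 ± 0.33, edgeR adjusted p = 0.0656). Differences of that size with a standard error like that of Ikzf2 could thus be missed there. The standard errors of the members ran from 0.09 to 0.31 in MPP3 and MPP4. The authors' deposited table called Ikzf2 in LT-HSC, MPP3 and MPP4 (adjusted p = 3.29e-07, 0.0487 and 5.7e-06). In LT-HSC, 0 of 7 passed in edgeR, where 0.0613% of all genes did, and 2 of 7 had an unadjusted p under 0.05 beside 11.2% of all genes. In MPP3 and MPP4, 0 of 7 passed in edgeR (0.00613% and 0.0123% of all genes), and 0 of 7 had an unadjusted p under 0.05 beside 4.59% and 4% of all genes. DESeq2, voom and the authors' deposited table also called 0 of 7 in each population. Megakaryocyte and platelet markers moved with the genotype: the summed CPM of 8 of them was 1674 to 2448 in LT-HSC KO and 1008 to 1232 in LT-HSC WT, 433 to 821 and 306 to 394 in MPP3, and 73.7 to 96.9 and 23.7 to 41.9 in MPP4. None of the 8 was at 0 reads in any group, and their part in the KO values was not tested.

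In LT-HSC the differences ran from -0.34 for Tet1 to 0.44 for Uhrf1. Uhrf1 was 0.44 ± 0.20 higher in KO (unadjusted p = 0.0385, edgeR adjusted p = 0.417), with overlapping groups, since KO 2 at 143 CPM lay below WT 3 at 158 CPM. Dnmt3a was -0.19 ± 0.09 (unadjusted p = 0.0432, edgeR adjusted p = 0.433), and Tet1 was -0.34 ± 0.18 (edgeR adjusted p = 0.513). Dnmt3a and Tet1 were the 2 of 7 whose groups did not overlap, both with KO below WT, beside 15.3% of all genes not overlapping and 6.14% in that direction. In the authors' deposited table the LT-HSC log2 fold changes were -0.21 for Dnmt3a (adjusted p = 0.209), -0.34 for Tet1 (adjusted p = 0.372) and 0.40 for Uhrf1 (adjusted p = 0.304). Against LT-HSC WT 1 alone, without the WT libraries that carry neutrophil transcripts, Dnmt3a was -0.38 (edgeR adjusted p = 0.171), Tet1 -0.20 (edgeR adjusted p = 0.777) and Uhrf1 0.50 (edgeR adjusted p = 0.474). In that fit the lone library is assumed to vary like the others.

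In MPP3 the differences ran from -0.52 ± 0.31 for Tet2 to 0.21 ± 0.20 for Uhrf1, and all groups overlapped (0 of 7, beside 10.6% of all genes not overlapping). Without MPP3 WT 1, MPP3 WT 2 and MPP3 KO 1, the libraries with plasma cell transcripts, Tet2 was 0.16 ± 0.44 and Uhrf1 -0.04 ± 0.31. That leaves MPP3 WT 3 as the only WT library, assumed to vary like the other groups. In MPP4 all 7 values were above 0, from 0.04 ± 0.18 for Tet1 to 0.31 ± 0.31 for Tet2, and all groups overlapped (0 of 7, beside 7.98%). Replication genes in MPP4 had a median of 0.21, with 18 of 18 above 0 and none called. Their summed CPM was 8423, 5230 and 6864 in MPP4 KO and 5914, 5678 and 6651 in MPP4 WT, so the groups overlapped. In LT-HSC and MPP3 their medians were 0.20 and 0.19, with 16 of 18 above 0 in each. No share of all genes above 0 stands beside these counts of values above 0, and no test was made of them.

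The intervals give the sizes these libraries could not exclude. For Dnmt3a the 95% intervals of the KO effect were -0.38 to -0.01 in LT-HSC, -0.23 to 0.15 in MPP3 and -0.12 to 0.26 in MPP4. For Dnmt1 they ran within -0.46 and 0.48 over the 3 populations. For Tet2 they ran from -1.17 in MPP3 to 0.95 in MPP4. A KO effect on Dnmt3a as large as the population difference of Uhrf1 lay outside its intervals, whereas for Tet2 in MPP3 a fall of that size lay inside.

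**Figure D4:**
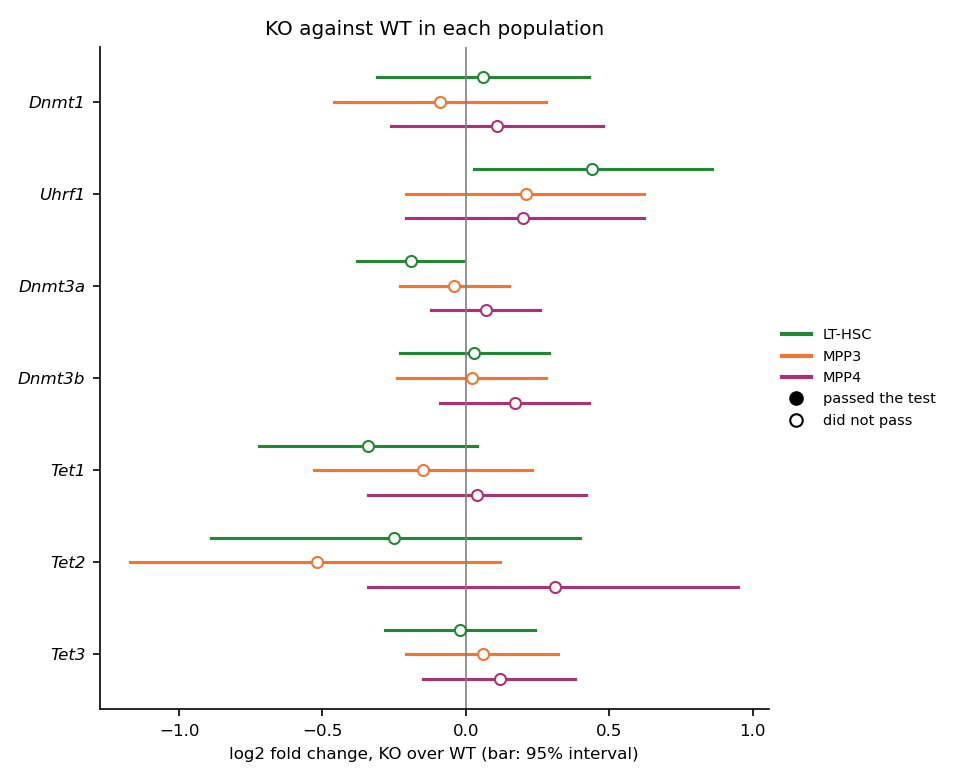
Log2 fold change of KO over WT for each gene in LT-HSC, MPP3 and MPP4 (colours), from edgeR with 95% intervals as bars. All points are open (not past the test); the LT-HSC intervals of Uhrf1 (0.03 to 0.86) and Dnmt3a (-0.38 to -0.01) leave out 0 before adjustment, and Tet2 has the widest intervals.

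The KO effects were also compared between populations. In edgeR 0 of 7 members and 0 of all 16325 genes (0%) passed in each of the 3 comparisons, with 3.69%, 6.65% and 3.23% of all genes at an unadjusted p under 0.05 in MPP3 against LT-HSC, MPP4 against LT-HSC and MPP4 against MPP3. DESeq2 called 0 of 7 in each. The member with the smallest p was Dnmt3a in the first (0.16 ± 0.13, edgeR adjusted p = 1) and in the second (0.26 ± 0.13, edgeR adjusted p = 0.754), and Tet2 in the third (0.83 ± 0.43, edgeR adjusted p = 1).

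Levels between genes can be compared only per length, and here the order turned on the length used. The deposited table gives a median transcript length per gene, equal to the median over all transcripts in GENCODE M21, short ones included: 599.5 bases over 10 transcripts of Tet1 and 820.5 bases over 18 of Dnmt3a. The longest protein-coding transcripts are 14369 bases for Tet1 and 9685 bases for Dnmt3a. Divided by the median length, Tet1 (median over 18 libraries, 236 CPM per kb) and Dnmt3a (213 CPM per kb) stood above Dnmt1 (118 CPM per kb). Divided by the longest protein-coding transcript, the order was Dnmt1 (105 CPM per kb), Uhrf1 (66.4), Dnmt3b (33.4), Dnmt3a (18), Tet3 (13.6), Tet1 (9.84) and Tet2 (3.7). Tet2 was last on both scales. For Dnmt1, Uhrf1 and Dnmt3b both lengths gave similar values, since their median transcripts are near full length (5248 of 5870 bases for Dnmt1). Differences between libraries of 1 gene do not depend on this choice.

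**Figure D5:**
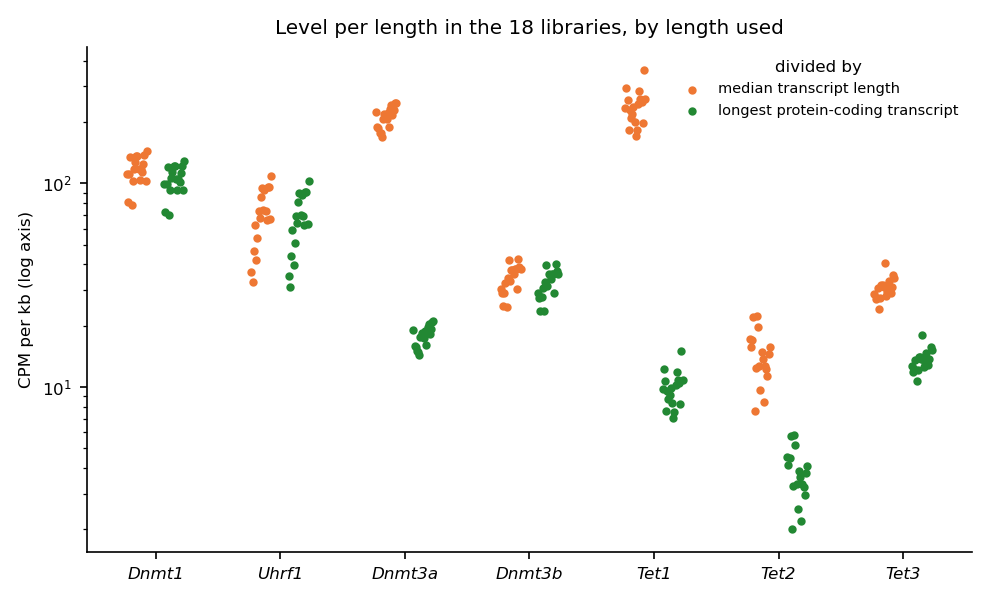
CPM per kb (log axis) of each gene in the 18 libraries, divided by the deposited median transcript length (orange) or by the longest protein-coding transcript (green). Tet1 drops from a median of 236 to 9.84 and Dnmt3a from 213 to 18 when the length changes, while Dnmt1 goes from 118 to 105.

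The genes lie on 7 chromosomes (mm10): Dnmt1 at chr9:20907209-20959888, Uhrf1 at chr17:56303321-56323486, Dnmt3a at chr12:3806007-3914443, Dnmt3b at chr2:153649450-153687730, Tet1 at chr10:62804570-62908996, Tet2 at chr3:133463679-133545139 and Tet3 at chr6:83362373-83459084. Antisense genes overlap Dnmt3a, Dnmt3b, Tet2 and Tet3, and no source used here gives the strand setting of the counts. Their counts were small: Dnmt3aos had at most 6 reads in a library, Dnmt3bos 27, Gm42567 at Tet2 2 and B230319C09Rik at Tet3 6. Dnmt3c, a close copy of Dnmt3b that acts in male germ cells of rodents, had at most 4.

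Other genes of the pathway were counted in lists. In each comparison up to 3 called genes of a list with the smallest p are named, so a gene not named there may also have passed. Against LT-HSC, 9.68% of all genes tested passed as higher and 7.66% as lower in WT MPP3, 14.1% and 13.1% in WT MPP4, 6.85% and 6.82% in KO MPP3, and 9.57% and 10.5% in KO MPP4. Of 11 tested partners and regulators of the methyltransferases, 5 passed as higher and 0 as lower in MPP3 than in LT-HSC in WT, with a median of 0.49 over the list. In WT MPP4 5 of 11 passed as higher too, and in KO 4 in MPP3 and 5 in MPP4. Hells, a chromatin remodeller needed for methylation of repeats, was higher in all 4 comparisons, by 0.94 ± 0.21 and 0.96 ± 0.21 in WT MPP3 and MPP4 (edgeR adjusted p = 0.00592 and 0.00283) and by 0.92 ± 0.21 and 1.09 ± 0.21 in KO. Cdca7, which binds Hells, was higher in WT MPP4 (0.66 ± 0.14) and in KO MPP3 (0.55 ± 0.14) and MPP4 (0.52 ± 0.14). Its mean in MPP3 WT, 489 ± 27.6 CPM (SD, n = 3), was near that in MPP4 WT (495 ± 34.9) and above that in LT-HSC WT (314 ± 46.5). Trim28, the corepressor of zinc finger proteins, was higher in all 4 as well, by 0.72 ± 0.12 and 0.82 ± 0.12 in WT and by 0.49 ± 0.12 and 0.51 ± 0.12 in KO. Ehmt2, a histone methyltransferase, was higher by 0.59 ± 0.12 in WT MPP3.

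Among proteins that read methylated DNA the calls were split in direction. Of 9 readers and members of their family, 2 passed as lower in WT MPP3, and 2 as lower and 1 as higher in WT MPP4. Zbtb38, a zinc finger protein that binds methylated CpG, was at 106 ± 2.1 CPM (SD, n = 3) in LT-HSC WT, 59.1 ± 11.7 in MPP3 WT and 41.4 ± 8.55 in MPP4 WT, with log2 differences of -0.85 ± 0.25 (edgeR adjusted p = 0.0263) and -1.36 ± 0.25 (edgeR adjusted p = 0.000691). Zbtb4, of the same family, was lower too (-1.36 ± 0.39 and -1.26 ± 0.39), at 10.1 CPM in LT-HSC WT, 3.95 CPM in MPP3 WT and 4.21 CPM in MPP4 WT. Mbd3, of the NuRD complex, was higher in WT MPP4 (0.40 ± 0.11) and KO MPP4 (0.34 ± 0.11), as was Mbd4, a thymine glycosylase, in KO MPP4 (0.65 ± 0.16). In KO, 0 of 9 passed in MPP3 in edgeR, with 2 at an unadjusted p under 0.05, and 1 passed in DESeq2. Zbtb38 was lower in KO MPP4 too (-1.04 ± 0.25).

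Of 12 tested genes linked to the removal of modified cytosine, 2 passed as higher and 1 as lower in MPP3 and in MPP4 in WT. Apex1, the endonuclease of base excision repair, was higher by 0.56 ± 0.15 in MPP3 and 0.63 ± 0.15 in MPP4. Apobec3, a cytidine deaminase known for restricting retroviruses, was higher by 0.42 ± 0.13 in MPP3. Gadd45g, a stress-induced gene, was lower in both, from 4.64 ± 1.81 CPM in LT-HSC WT to 1.58 ± 0.803 in MPP3 WT and 0.554 ± 0.0384 in MPP4 WT, while Gadd45b was higher in MPP4 (1.12 ± 0.36). In KO, 3 passed as higher and 2 as lower in MPP3, and 2 and 3 in MPP4. Among these, Apobec3 was higher in MPP3 (0.52 ± 0.13) and MPP4 (0.65 ± 0.13), and Gadd45g was lower in both (-2.62 ± 0.53 and -3.6 ± 0.56). Tdg, the glycosylase that removes the bases made by TET enzymes, was higher in KO MPP4 (0.79 ± 0.20, edgeR adjusted p = 0.00913). Neil2, another glycosylase, was lower in KO MPP3 (-3.76 ± 0.95) on 6 to 10 reads per MPP3 KO library.

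Of 9 tested TET partners and enzymes of alpha-ketoglutarate, Idh2, the mitochondrial isocitrate dehydrogenase that makes the TET cofactor, was higher by 0.79 ± 0.11 in WT MPP3 and 0.90 ± 0.11 in WT MPP4 (edgeR adjusted p = 0.000177 and 1.92e-05). Its levels were 344 ± 36.2 CPM in LT-HSC WT, 597 ± 17.8 in MPP3 WT and 641 ± 22.3 in MPP4 WT. In KO it was higher by 0.79 ± 0.11 and 0.81 ± 0.11. Slc23a2, a transporter of ascorbate, which keeps TET enzymes active, was lower in WT MPP3 (-0.43 ± 0.14), KO MPP3 (-0.59 ± 0.14) and KO MPP4 (-0.43 ± 0.14). No further gene of the list passed against LT-HSC in edgeR. DESeq2 called 3 of the 9 in WT MPP4, where edgeR called 1.

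Of 12 enzymes of the S-adenosylmethionine and folate cycles, which supply the methyl group, 2 passed as higher and 1 as lower in WT MPP3, and 2 and 2 in WT MPP4. Shmt1 and Shmt2, the serine hydroxymethyltransferases, were higher by 0.91 ± 0.19 and 0.62 ± 0.17 in MPP3 and by 0.92 ± 0.19 and 0.57 ± 0.17 in MPP4. Ahcyl2, a relative of the hydrolase of S-adenosylhomocysteine, was lower in both (-0.62 ± 0.14 and -0.93 ± 0.14). In KO, 2 and 1 of the 12 passed, with Shmt1 higher in MPP3 (0.64 ± 0.19) and Ahcyl2 lower in both (-0.53 ± 0.14 and -0.75 ± 0.14). Between KO and WT, 0 of the 53 genes tested in these 5 lists passed in edgeR in any population, and 6, 2 and 1 of them had an unadjusted p under 0.05 in LT-HSC, MPP3 and MPP4, beside 11.2%, 4.59% and 4% of all genes. DESeq2 called 1, D2hgdh in LT-HSC, named here after its values were seen, which encodes the dehydrogenase that removes the TET inhibitor hydroxyglutarate. It had 544 to 674 reads in the KO libraries and 1020 to 1568 in the WT libraries, with a log2 difference of -0.76 ± 0.17 in edgeR (adjusted p = 0.139) and -0.78 in DESeq2 (adjusted p = 0.00138).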

How the data were processed

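Per the labels' protocols, RNA from 10000 to 40000 sorted cells was amplified with SMART-Seq v4 and made into Nextera XT libraries. These kits add no molecular identifiers, so reads are not independent molecules. Tools named in the submitters' processing notes are bcl2fastq 2.17.1.14 and DESeq, with the build mm10. No source used here gives the aligner, counter, annotation or strand setting. Per the file headers, the authors deposited raw counts per gene, in whole numbers, and all tests ran on these counts. They also deposited a size-factor normalized signal, median transcript lengths, log2 fold changes and p-values of KO against WT, per the file headers.

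Counts were filtered with filterByExpr and scaled by TMM, and edgeR 4.0.16 (R 4.3.3) was fitted with 1 mean per group to all 18 libraries. Dividing the log2 fold change by the root of its F statistic gave the standard errors, and 95% intervals use the fit's degrees of freedom. DESeq2 1.42.0, limma 3.58.1 voom, other scaling, no filter, block fits and fits with libraries left out were alternatives. The scripts were tested on simulated data. All 7 genes were named, and of each pathway list up to 3 called genes with the smallest p.

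The members, lists and tests were chosen with earlier results of these data known. The design text gives 3 mice per genotype and the titles number the libraries of each population, so the number was taken as the mouse within a genotype. Deviations of the same mouse in 2 populations correlated at 0.038 to 0.172 over 18 pairs. Deviations of the same number in WT and KO correlated at 0.00238 to 0.0988 over 9 pairs, and these numbers do not pair mice. Sequences are from RefSeq (GRCm38.p6) and transcripts from GENCODE M21.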

Additional observations from a re-analysis of the deposited data

How the results depend on the processing

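The count of members passing between KO and WT was 0 in edgeR under every alternative in all 3 populations. Of single-member results, 802 alternative values kept direction and call, 22 lost and 15 gained a call, and 55 changed sign, none of them a value past the test. Members had at least 512 reads in every library, and counting error was not compared with the spread between libraries. RLE scaling shifted the median of all genes by at most 0.037 in size (-0.037 in MPP3 against LT-HSC in WT).

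In MPP3 against LT-HSC in KO, where 1 member passed, 2 passed with DESeq2, voom, the number as a replicate block and the mouse as a replicate block, and 0 with libraries 2 and 3 only and without the 3 libraries with plasma cell transcripts (added after seeing the data). In the same comparison in WT, where 2 passed, 1 passed with RLE scaling, without the filter, with libraries 2 and 3 only, without the pair with neutrophil transcripts and without the 3 libraries (these last added after seeing the data). In MPP4 against LT-HSC in WT, where 1 passed, 3 passed with voom and 2 with each replicate block. The replicate block changed no other count, and 15 of 18 libraries correlated best with their own number. The causes were not tested. Leaving out 1 library gave 1 to 2 members in MPP3 against LT-HSC in WT, 0 to 1 in KO, 1 to 3 in MPP4 against LT-HSC in WT, 2 to 3 in KO, and 0 to 1 in MPP4 against MPP3 in KO.

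Over all genes, KO against WT in LT-HSC gave 10 calls in edgeR, 241 in DESeq2, 33 in voom, 20 with the number block, 19 with libraries 2 and 3 and 77 without LT-HSC WT 2 and 3. In MPP3 it gave 1, with 45 in DESeq2, 2 in voom, 2 without the filter and 4 with libraries 2 and 3. In MPP4 it gave 2, with 39 in DESeq2, 7 without the filter and 7 with libraries 2 and 3. Leaving out 1 library gave 2 to 14, 1 to 2 and 1 to 5. Differences of KO effects gave 0, with 4, 49 and 8 in DESeq2. MPP3 against LT-HSC gave 2831 in WT (1589 without MPP3 WT 3, 1640 without the neutrophil pair, 1127 without the 3 libraries) and 2231 in KO (3440 in voom, 1187 without the 3 libraries, 1349 without MPP3 KO 1, 1363 without LT-HSC KO 2, 1409 without MPP3 KO 3). MPP4 against LT-HSC gave 3284 in KO and 4435 in WT. MPP4 against MPP3 gave 786 in WT (1230 in DESeq2, 465 without MPP4 WT 1, 516 without MPP3 WT 2) and 888 in KO (1393 in DESeq2, 564 with libraries 2 and 3).

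Values that changed sign, none past the test, were these. Tet1 in MPP4 against LT-HSC in WT became -0.02 with DESeq2 and RLE scaling and -0.10 with libraries 2 and 3. Tet1 between KO and WT became -0.01 in MPP4 with voom. Tet2 in MPP4 against LT-HSC in KO became 0.08 with voom, 0.01 with the mouse block and 0.59 with libraries 2 and 3. With libraries 2 and 3, KO against WT became -0.08 for Dnmt1 in LT-HSC and -0.03 for Dnmt3b and -0.13 for Tet3 in MPP3, and Tet2 in MPP3 against LT-HSC became -0.01 in WT and 0.51 in KO. Without the neutrophil pair, Dnmt1 and Dnmt3b between KO and WT became -0.09 and -0.10, and Dnmt3a in MPP3 against LT-HSC in WT -0.10. Without the 3 plasma cell libraries, KO against WT in MPP3 became -0.04 for Uhrf1, 0.08 for Tet1, 0.16 for Tet2 and -0.11 for Tet3, and MPP3 against LT-HSC became -0.39 for Tet2 in WT, and 0.04 for Tet1 and 0.02 for Tet2 in KO.

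Leaving out 1 library gave ranges across 0 for KO against WT in LT-HSC of Dnmt1 (-0.15 to 0.25), Dnmt3b (-0.05 to 0.13), Tet2 (-0.73 to 0.06) and Tet3 (-0.10 to 0.07), in MPP3 of Dnmt3a (-0.10 to 0.01), Dnmt3b (-0.04 to 0.13) and Tet3 (-0.13 to 0.16), and in MPP4 of Tet1 (-0.21 to 0.22). In MPP3 against LT-HSC this held in KO for Tet1 (-0.23 to 0.04) and Tet2 (-0.44 to 0.35) and in WT for Tet2 (-0.03 to 0.34). In MPP4 against LT-HSC it held in KO for Tet2 (-0.32 to 0.47) and in WT for Tet1 (-0.03 to 0.11). In MPP4 against MPP3 it held in KO for Tet2 (-0.05 to 0.24), Tet3 (-0.07 to 0.22) and Uhrf1 (-0.10 to 0.23), and in WT for Dnmt3b (-0.11 to 0.06), Tet3 (-0.08 to 0.02) and Uhrf1 (-0.12 to 0.17).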
